A study of Mus musculus with 2 samples.

Results

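The BCL2 family decides whether the mitochondrial outer membrane stays closed or is opened to start apoptosis, and 10 of its genes were examined in unfertilised mouse oocytes with and without Mul1. The genes were taken by name, as every non-control probe whose gene name in the scanner files was Mcl1, Bcl2, Bcl2l1, Bcl2l10, Bax, Bak1, Bok, Bad, Bid or Pmaip1. This gave 19 probes for 10 genes, among 56605 probes for 37324 gene names on the array. Of the 19 probes, 18 were well above background on both arrays, a call made by the scanner software, and each of the 10 genes kept at least 1 of them. The remaining one was a Bid probe.

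The Mul1 knockout sample (Mul1 -/-) was RNA of 123 pooled oocytes and the wild-type sample (Mul1 +/+) was RNA of 213 pooled oocytes, all unfertilised and all from the C57BL/6 strain. Neither the age of the animals nor the deleted part of Mul1 was given in the labels, and no treatment was named for either genotype. Amplified, Cy3-labelled RNA of each pool was hybridised to 1 single-colour Agilent array. With 1 array per genotype there was no replicate check and no test, and every difference describes this pair of pools. In pooled RNA, fewer cells of a type and less RNA per cell cannot be told apart.

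In this family, survival proteins such as MCL1, BCL2 and BCL-XL (from Bcl2l1) hold the effectors BAX and BAK in check. BH3-only proteins such as BAD, BID and NOXA (from Pmaip1) bind the survival proteins or activate the effectors. Bcl2l10 was counted with the survival members here, and its role was not tested. Once BAX or BAK forms pores, cytochrome c leaves the mitochondrion and caspases are activated. Oocytes depend on this balance, since damaged or surplus oocytes are removed by the same pathway, and Mcl1 is known as a survival gene of mouse oocytes. MUL1 is an E3 ubiquitin ligase of the same outer membrane. Setting the pools side by side shows which transcripts of these regulators differ between oocytes without and with Mul1.

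Levels are log2 of the processed signal minus the 75th percentile of that array, so a level of 0 is as bright as that percentile. Differences are knockout minus wild type on this scale. The scanner software assigns each bright spot an error of 10%, which gives a single bright probe an error of 0.20 on its log2 difference, and each member probe was printed at 1 spot. Among 296 probes printed at 10 spots each, the measured SD of the difference between spots had a median of 0.04 and a maximum of 0.20. These errors cover the spots only and hold no spread between animals or pools. Probes bind with unequal strength, so signals are compared between arrays for the same probe and not between genes.

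Array depth was alike, with 36488 probes (64.5%) well above background on the knockout array and 37369 (66.0%) on the wild-type array, and no saturated spot on either. The Mul1 probe for NM_026689 read 1074 on the knockout array and 3353 on the wild-type array, a difference of -1.61, while the probe for ENSMUST00000105815 read 23.1 on the knockout array and 19.3 on the wild-type array. Oocyte markers were present, with 11 of 12 measured on both arrays and a summed level, in units of the 75th percentile signal, of 158 in knockout and 167.7 in wild type. The other oocyte marker, Figla, was well above background in wild type only. Other cells were present too: all 12 cumulus and granulosa markers were measured, with a summed level of 216.5 in knockout and 202 in wild type. All 12 myeloid markers were measured and all were at least 1.5-fold higher in knockout, with summed levels of 44.87 in knockout and 14.04 in wild type. The 5 red cell markers on the array, globin genes and Alas2, were all at least 2-fold lower in knockout, with summed levels of 24.4 in knockout and 74.1 in wild type. The part of these cells in the BCL2 family results was not tested.

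The 60-base probes that lie in the coding sequence of members are shown to let the measured stretch be seen, each printed 5′ to 3′ in the sense of the transcript and with no part marked. They come from the deposited scanner files, with positions on mouse build mm9, and each reads without a stop codon in at least 1 forward frame. The Bax probe covers chr7:52721469-52721624 on the minus strand, a span of 156 bases that is wider than the probe and so crosses an intron. The Bcl2 probe covers chr1:108608970-108609029 on the minus strand, in the part that codes for the BH1 region, which helps to form the groove that holds BH3 helices. The Bcl2l1 probes cover chr2:152655618-152655677, in the early part of the coding sequence, and chr2:152655185-152655244, in its later part, both on the minus strand.
Bax: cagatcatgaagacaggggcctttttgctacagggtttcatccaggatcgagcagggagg
Bcl2: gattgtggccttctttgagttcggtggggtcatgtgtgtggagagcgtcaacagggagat
Bcl2l1, early part: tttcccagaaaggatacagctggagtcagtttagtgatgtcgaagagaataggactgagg
Bcl2l1, later part: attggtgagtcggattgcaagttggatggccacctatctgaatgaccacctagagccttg

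Mcl1 was the survival member that stood furthest below wild type, and its promoter is shown for that reason. These are the 250 bases before the transcription start in RefSeq, chr3:95658471-95658720 on the plus strand of GRCm38.p6, with the matches to an ETS core and to a GC box in capitals.
Mcl1 promoter: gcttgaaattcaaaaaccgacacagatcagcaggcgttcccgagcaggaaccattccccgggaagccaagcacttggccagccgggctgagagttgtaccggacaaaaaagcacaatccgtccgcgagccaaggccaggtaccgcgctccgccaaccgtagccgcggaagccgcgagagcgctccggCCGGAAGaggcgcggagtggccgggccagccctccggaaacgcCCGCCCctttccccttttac
The motifs searched on both strands of this window were CRE (TGACGTCA), AP-1 (TGACTCA), ETS (CCGGAAG), GC box (GGGCGG), E box (CACGTG), the CArG box and the p53 half-site. None of these motifs overlapped another in the Mcl1 window. The ETS core, bound by ETS family factors, begins 63 bases before the Mcl1 start and is found in 6.91% of 32851 RefSeq promoter windows of the same length. The GC box, bound by Sp1-like factors, was matched on the opposite strand 20 bases before the start and is found in 32.7% of windows. Among the 8 members whose promoters were examined, with 11 windows, the ETS core was found for Mcl1 only and the GC box for 6 members. The promoters of Pmaip1 and Bcl2l10 were not examined, so nothing is known here of their motifs. The p53 half-site, present in 7.13% of all windows, and the E box, present in 6.02%, were each found for Bax only among these 8. A match describes letters and not a bound site.

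Survival members came out unequal, with Mcl1 lower in the knockout pool and the other members close to wild type. Mcl1 encodes a short-lived protein that sequesters BAK and BH3-only proteins. At the probe for NM_008562, on chromosome 3 at 95466855 to 95466914 of mm9, the signal was 23821 in knockout and 37706 in wild type. At the probe for AK213359, at 95467049 to 95467108, it was 22500 in knockout and 35831 in wild type. Both Mcl1 probes were bright on both arrays, with signals at least 1423 times the dimmest well-above-background probe, and both were lower in knockout by nearly the same amount.

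The log2 differences at these Mcl1 probes were -0.63 and -0.64, each with a scanner error of 0.20, and their mean of -0.63 ± 0.14 (scanner error, 2 probes) is a 1.55-fold lower level. The distance between the Mcl1 probes was under 0.01. Over the 1261 genes with several probes in the brightest of 5 equal groups of measured genes, the median distance from lowest to highest probe was 0.10. The Mcl1 probes lie on neighbouring stretches of chromosome 3, whereas those genes can have more than 2 probes. The closeness of the Mcl1 probes is therefore no independent check. Of all 23061 measured genes, 4.49% had a difference as low as that of Mcl1 or lower. Among the 4612 genes of that brightest group, to which Mcl1 belongs, 1.76% were at least 1.5-fold lower. With scaling on 8 spike-in probes instead, the Mcl1 difference was -0.45 and under 1.5-fold.

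Bcl2l10, also called Diva or Boo, is a BCL2 relative known for its expression in the ovary and in oocytes. Its probe for NM_013479, on chromosome 9 at 75199356 to 75199415 of mm9, read 28482 in knockout and 32444 in wild type. The difference of -0.16 was within its scanner error of 0.20, and it was 0.03 with spike-in scaling. Bcl2l10 was bright in both pools, and a difference was not detectable at this precision.

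Bcl2l1 encodes BCL-XL and was represented by 5 probes, all well above background on both arrays. The probe in the early part of the coding sequence read 62.7 in knockout and 69.6 in wild type, and the one in its later part read 208 in knockout and 203.7 in wild type. The probe A_51_P299454, which lies at 152655730 to 152655789, read 119.7 in knockout and 111.6 in wild type. None of these Bcl2l1 probes differed by more than its scanner error.

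The other Bcl2l1 probes were assigned to NM_001289716. A_55_P1974877 read 12557 in knockout and 13210 in wild type, and A_66_P122989 read 374.6 in knockout and 364.5 in wild type. The mm9 positions given for this pair of probes overlap by 43 bases. Their sequences share no run longer than 5 bases on either strand, so at least 1 position is uncertain. The position given for A_66_P122989 spans 47 bases, fewer than the 60 of the probe, while that of A_55_P1974877 spans 60. Over its 5 probes the Bcl2l1 difference ran from -0.12 to 0.13 with a mean of 0.02 ± 0.09 (scanner error), which became -0.04 when only the brightest probe was used.

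Bcl2, the founding survival member, was dim in both pools. Its coding probe for NM_177410 read 121.8 in knockout and 118.9 in wild type, a difference of 0.07. The probe for NM_009741, on chromosome 1 at 108434793 to 108434852, read 126.9 in knockout and 128.1 in wild type, a difference of 0.02. The transcript ENSMUST00000189999, at 108607310 to 108607369, read 29.1 in knockout and 19.2 in wild type, a difference of 0.63 with a scanner error of 0.36, at 1.84 times the lowest signal well above background in knockout and 1.49 times in wild type. The mean over the 3 Bcl2 probes, 0.24, therefore rests on the dimmest of them, and it was 0.04 under a stricter filter on dim probes.

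**Figure D1:**
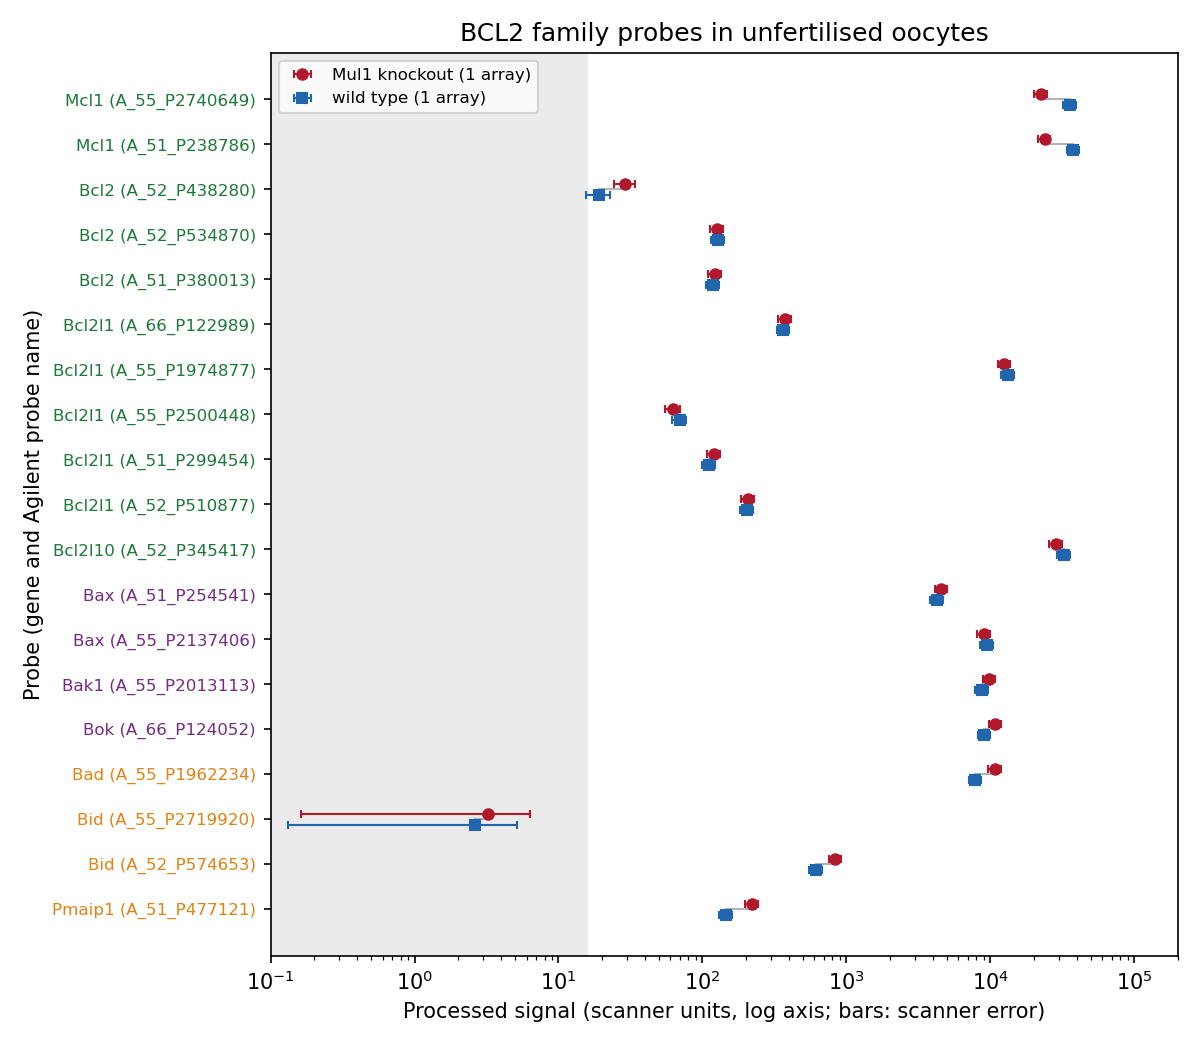
Processed signal of each BCL2 family probe (log axis, scanner units) on the Mul1 knockout array (red circles) and the wild-type array (blue squares), with bars for the scanner error and grey shading up to 15.8, the dimmest well-above-background signal of the knockout array. Gene names are green for survival, purple for effector and orange for BH3-only members, and the lower bars of the dim Bid probe are cut short because its errors exceed its signals; Mcl1 sits lower in knockout at both probes and the BH3-only genes sit higher.

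The effector members lay at or slightly above wild type. Bax encodes the effector that moves from the cytosol to the outer membrane. The Bax coding probe read 4566 in knockout and 4260 in wild type, a difference of 0.13. The other Bax probe, on chromosome 7 at 52717122 to 52717181, read 9052 in knockout and 9475 in wild type, a difference of -0.03. The Bax probes thus fell on opposite sides of 0, and their mean was 0.05 ± 0.14 (scanner error), or -0.03 with the brightest probe alone.

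Bak1 encodes the effector that resides in the outer membrane. Its probe for NM_007523, on chromosome 17 at 27156807 to 27156866, read 9848 in knockout and 8703 in wild type. The Bak1 difference of 0.21 was about the size of its scanner error of 0.20.

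Bok encodes a further BAX-like protein that is also found at the endoplasmic reticulum. Its probe for NM_016778, on chromosome 1 at 95592276 to 95592335, read 10866 in knockout and 9113 in wild type. The Bok difference of 0.29 exceeded its scanner error of 0.20 and is a 1.22-fold higher level, and 19.4% of measured genes were as high or higher.

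BH3-only members were the highest of the family relative to wild type. Bad encodes a sensitiser that binds BCL2, BCL-XL and BCL-W and is held inactive by phosphorylation. Its probe for NM_007522, on chromosome 19 at 7026323 to 7026382, read 10738 in knockout and 7892 in wild type. The Bad difference of 0.48 ± 0.20 (scanner error) is a 1.39-fold higher level, and 10.5% of measured genes were as high or higher. Both Bad and Bok lay in the brightest of the 5 signal groups. In that group 1.63% of genes were at least 1.5-fold higher, a fold that neither gene reached.

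Bid encodes a BH3-only protein that caspase-8 cleaves to its active form. Its probe for NM_007544, on chromosome 6 at 120843464 to 120843523, read 836.6 in knockout and 615.9 in wild type. The Bid difference of 0.47 ± 0.20 (scanner error) was close in size to that of Bad. The second Bid probe, for ENSMUST00000125915 at 120857038 to 120857097, read 3.23 in knockout and 2.65 in wild type, not well above background on either array, and no fold is given for it.

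Pmaip1 encodes NOXA, a BH3-only protein that binds MCL1 in preference to BCL2 and promotes its breakdown, and that p53 family members induce in damaged oocytes. Its probe for NM_021451, on chromosome 18 at 66625088 to 66625147, read 220.2 in knockout and 145.9 in wild type. The Pmaip1 difference of 0.63 ± 0.21 (scanner error) is a 1.54-fold higher level, the largest of the 10 members upward. Pmaip1 lay in a dim group, the next above the dimmest of the 5, where 11.8% of 4612 genes were at least 1.5-fold higher, and with normexp background correction its difference was 0.46 and under 1.5-fold.

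**Figure D2:**
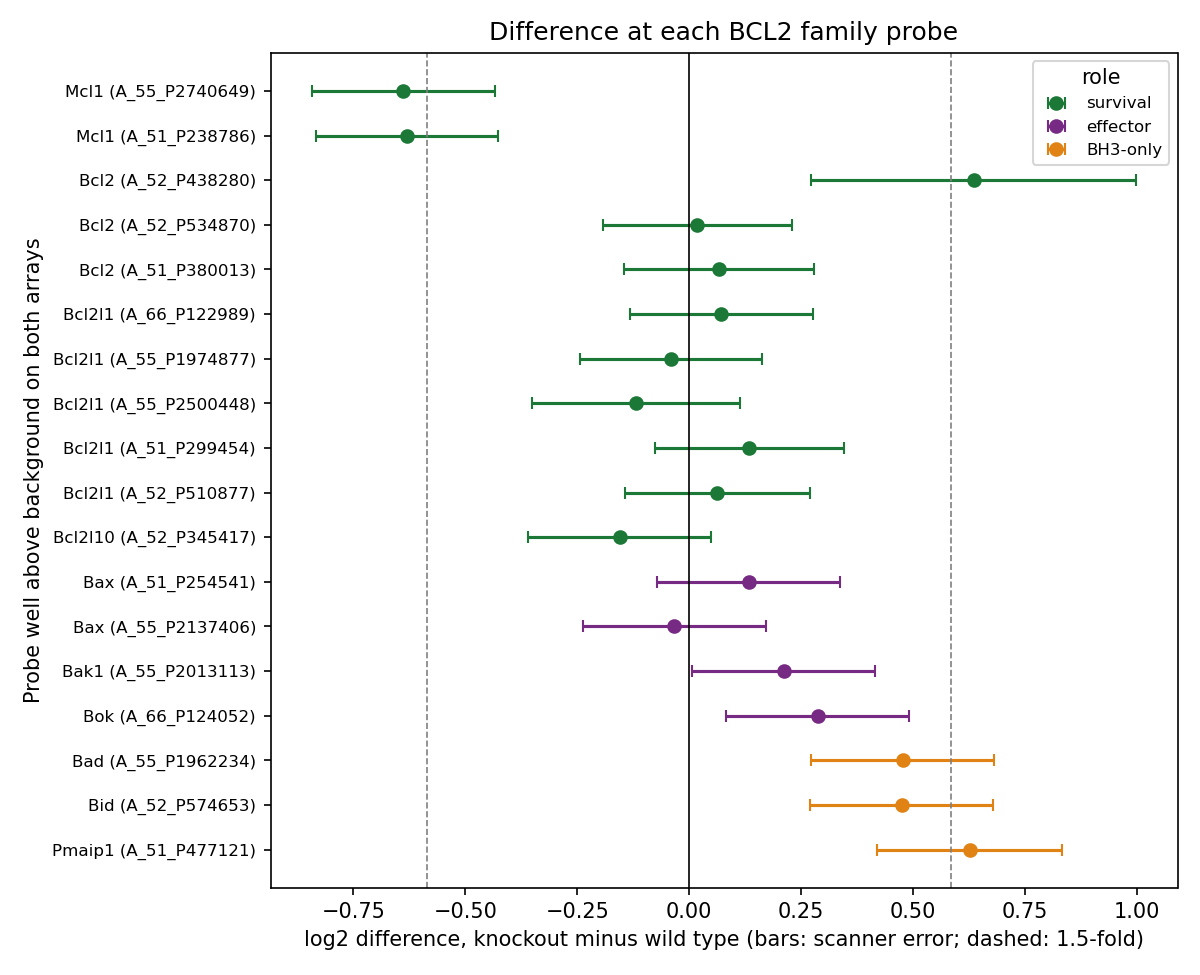
Log2 difference, knockout minus wild type, at each of the 18 BCL2 family probes well above background on both arrays, coloured by role, with bars for the scanner error and dashed lines at 1.5-fold. Mcl1 stands at -0.63 and -0.64, the BH3-only probes at 0.47 to 0.63, and the single Bcl2 probe at 0.63 carries the widest bar.

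Set side by side, the death members examined were higher relative to wild type than the survival members examined. Among the further family genes described below the order was the reverse. Their medians were 0.60 over 4 measured survival genes and 0.12 over 8 measured death genes, so the order depends on which genes are listed. That 0.60 counts the near-identical copies Bcl2a1c, at 1.27, and Bcl2a1d, at 1.07, as separate genes. The other further survival genes, Bcl2l2 at 0.03 and Bcl2l12 at 0.14, lay within the further death genes' range of -0.28 to 0.56. The 6 death members, effectors and BH3-only together, had a median difference of 0.38 and a range of 0.05 to 0.63, with 6 of 6 above 0, or 5 of 6 with the brightest probe of each gene, when Bax was at -0.03. The 4 survival members had a median of -0.07 and a range of -0.63 to 0.24, with 2 of 4 below 0. The ranges overlap, since Bcl2 at 0.24 lay above Bax at 0.05 and Bak1 at 0.21. Across all measured genes the median was 0.03 and 54.7% lay above 0.

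The survival median minus the death median was -0.45, or -0.49 between the means, which sets the groups 1.36-fold apart by medians. Scaling each array by another constant leaves this distance as it is, whereas the survival median itself was 0.12 with spike-in scaling. By role, the median was 0.21 over the 3 effectors and 0.48 over the 3 BH3-only members. Members are not replicates of the genotype, and these medians have no test.

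By size, 1 member was at least 1.5-fold lower (Mcl1) and 1 was at least 1.5-fold higher (Pmaip1) in the knockout pool. Among all 23061 measured genes, 7.81% were higher by that fold, 5.23% were lower by it and 13.0% were past it in either direction. Of these 3009 genes 59.9% were the higher ones, or 82.5% of those past the fold with spike-in scaling, under which the median of all genes was 0.22 and 3 members were higher by the fold and none lower. The members' count of 2 of 10 is near that background and is no result about the family. No member was at least 2-fold apart, against 4.28% of all measured genes.

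**Figure D3:**
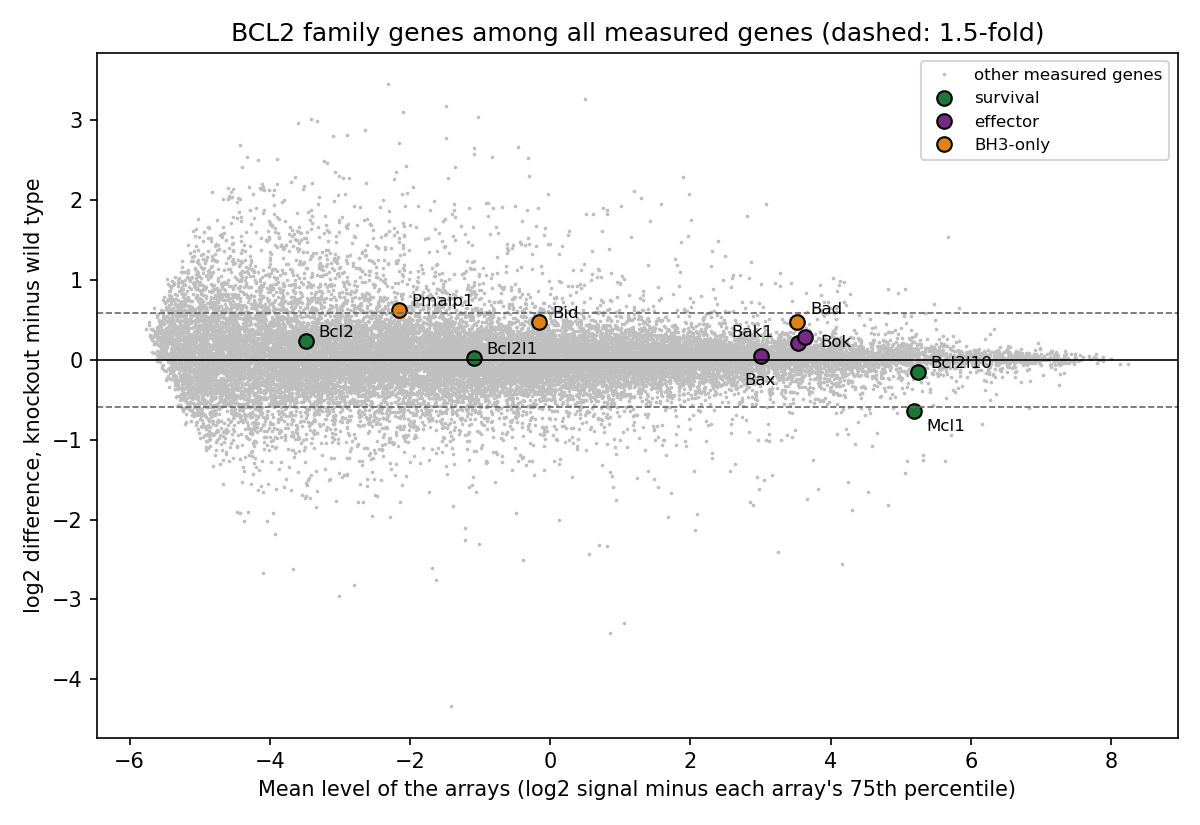
Difference of each measured gene (knockout minus wild type, log2) against its mean level on the arrays (log2 signal minus the 75th percentile), with the BCL2 family members marked by role and dashed lines at 1.5-fold. Other measured genes (grey) spread more widely when dim, and Mcl1 lies at -0.63 among bright genes, of which 1.76% are at least 1.5-fold lower.

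Further family members and pathway genes were described from a list of 56 names, of which 50 were measured on both arrays. Of the others, 2 are older names of listed genes, Bcl2a1a and Bcl2a1b had no probe under that name, and Hrk and Bcl2l14 had none well above background. Beside the genes past 1.5-fold and the ends of each role, the genes named here were chosen after their values were seen. Of these 50, 2 were higher in knockout by 1.5-fold or more and 3 were lower by as much, and the median was 0.04, beside 0.03 for all measured genes. This count of 5 of 50 is near the 13.0% of all measured genes past that fold and is no result about the pathway; the counts by role below are read against the same share. The higher genes were both of the Bcl2a1 group, survival genes known from myeloid and other blood cells. Bcl2a1d read 1734 in knockout and 844.1 in wild type, a difference of 1.07, and Bcl2a1c read 145.1 in knockout and 61.5 in wild type, a difference of 1.27. Bcl2a1 genes are near-identical copies, so a probe cannot be assigned to a single copy with certainty. The 12 myeloid markers had differences of 0.60 to 3.27 beside them, and their part in the Bcl2a1 values was not tested. The other measured survival genes were Bcl2l2, which encodes BCL-W, at 0.03 and Bcl2l12 at 0.14. Over the 4 measured further survival genes, with Bcl2a1c and Bcl2a1d counted separately, the median was 0.60.

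Of 10 further death genes 8 were measured, with a median of 0.12. None of the 8 was 1.5-fold apart or more, which at a share of 13.0% over all measured genes says nothing about the group. Bmf, a BH3-only gene tied to the cytoskeleton, was highest at 0.56, but its probes read 0.28 and 0.83. Bbc3, which encodes the p53-induced BH3-only protein PUMA, was lowest at -0.28, with signals of 3288 in knockout and 4089 in wild type. Bcl2l11, which encodes BIM, averaged 0.19 over 4 probes that ran from -0.55 to 0.47. The mitophagy receptor genes Bnip3 and Bnip3l, which also carry BH3-like motifs, read -0.02 and 0.15.

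The genes that act downstream of the outer membrane included none that was 1.5-fold apart or more, beside 13.0% of all measured genes and smaller shares among bright ones, and nothing is read from that count. The 8 genes for released or channel proteins ran from -0.20 for Diablo, an antagonist of caspase inhibitors, to 0.15 for Cycs, cytochrome c. Vdac2, whose channel protein holds BAK at the membrane, read -0.19, with signals of 35904 in knockout and 41867 in wild type. Among the 10 apoptosome and caspase genes Casp2, a caspase linked to oocyte death, was highest at 0.56, from probes at 0.17 and 0.95, and Casp12 was lowest at -0.27. The 6 genes for caspase inhibitors and other inhibitors ran from -0.33 for Birc2 to 0.35 for Birc5, which encodes survivin.

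Genes that act on the amount of MCL1 and its relatives were listed as turnover genes. Of 7 measured genes for turnover, 6 were below 0, with a median of -0.23, beside 10437 of all 23061 measured genes. Mul1 itself, at -0.66 over its 2 probes, was the one at least 1.5-fold lower. As the gene knocked out, Mul1 adds nothing to that count, and the count was not tested. Huwe1, a ubiquitin ligase for MCL1, averaged -0.41 over 5 probes from -1.09 to -0.03, and Usp9x, a deubiquitinase that stabilises MCL1, read -0.23. Fbxw7, another ligase for MCL1, read -0.16.

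The 7 transcription factor genes of this pathway had a median of 0.03, and Ddit3 and Atf4 were the lowest of the measured pathway genes. Atf4, a stress-response activator that has been linked to Mcl1 and Pmaip1 transcription, read -0.79, with probes at -0.82 and -0.76. Ddit3, which encodes CHOP, a stress factor that represses Bcl2 and induces Bcl2l11 in other cells, read -2.33, a 5.05-fold lower level, with probes at -2.56 and -2.11. Trp53 was highest of the 7 at 0.36, with signals of 1552 in knockout and 1238 in wild type. Trp63, whose oocyte isoform TAp63 induces Pmaip1 and Bbc3 after DNA damage, read 0.21 over 2 measured probes at 0.06 and 0.36. Foxo3, which can induce BH3-only genes, read -0.44, with probes from -0.85 to -0.20.

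**Figure D4:**
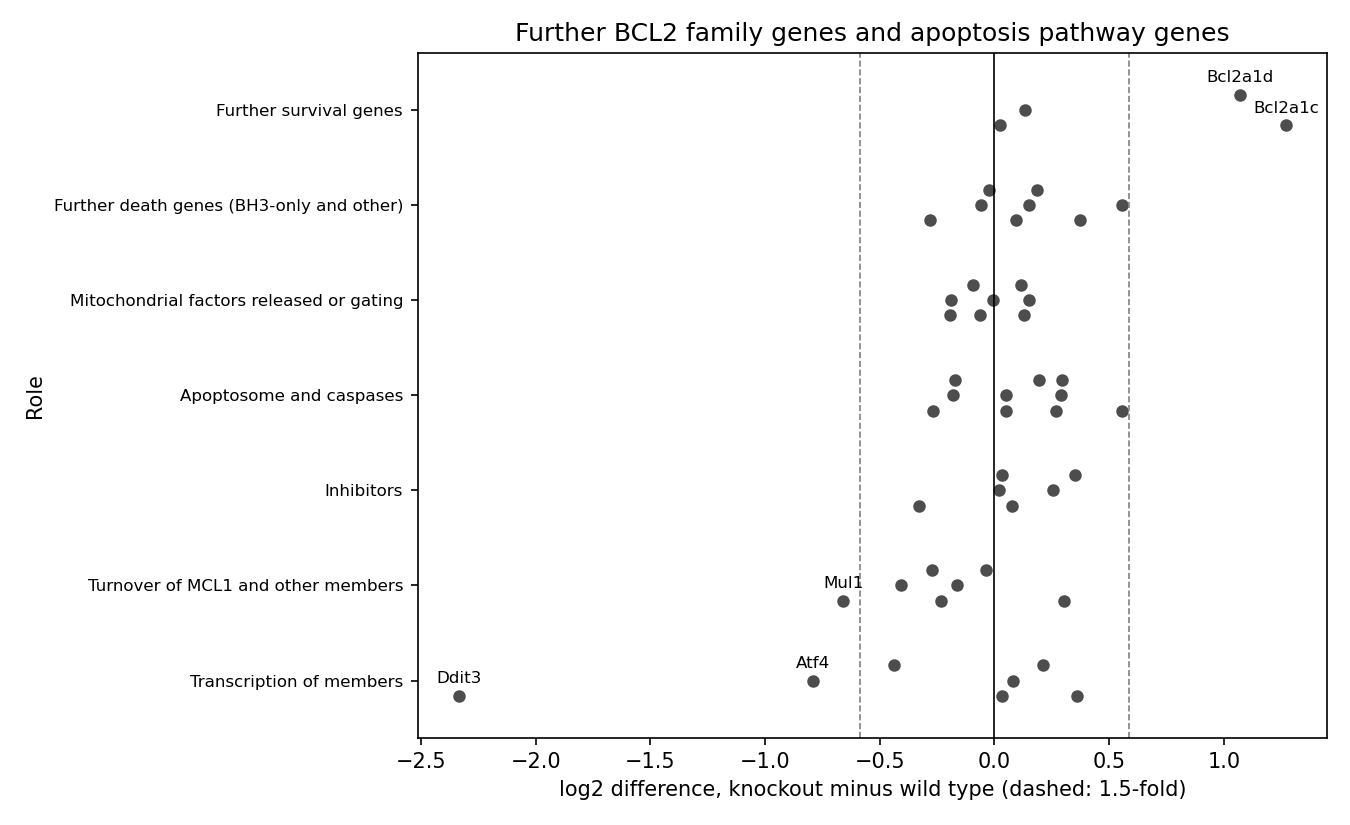
Log2 difference, knockout minus wild type, of the 50 measured pathway genes by role, 1 point per gene with points spread vertically for legibility, dashed lines at 1.5-fold and names for genes past them. Bcl2a1c and Bcl2a1d lie past the line on the higher side, and Mul1, Atf4 and Ddit3 on the lower side.

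BCL2 family genes are expressed in most cell types, and the markers of other cells are given here beside the members. Cumulus and granulosa markers ran from -0.81 for Amh to 1.16 for Has2, with a median of 0.21. Oviduct epithelium markers were all measured, with a median of 0.53 and summed levels of 152.8 in knockout and 96.2 in wild type, Ovgp1 at 1.54 being highest and Krt18 at -0.14 lowest. Oocyte markers had a median of 0.16, from -0.14 for Zar1 to 0.94 for Ooep. The BH3-only differences of 0.47 to 0.63 lay within the ranges of the cumulus, oviduct and oocyte lists, and Pmaip1 at 0.63 also lay within the myeloid range of 0.60 to 3.27. The Mcl1 difference of -0.63 lay below every measured oocyte, oviduct and myeloid marker. It also lay below every cumulus and granulosa marker except Amh. Every measured red cell marker was lower than Mcl1, from -1.66 to -1.03. The part of these other cells in the member differences was not tested.

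**Figure D5:**
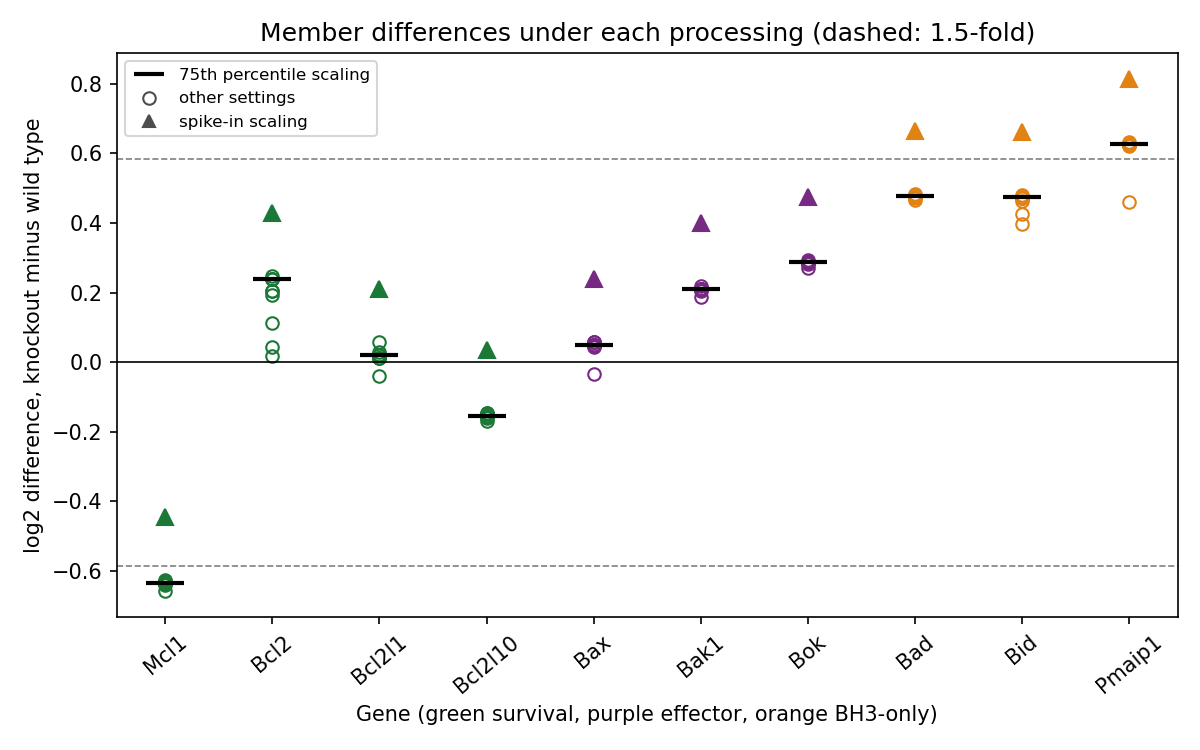
Log2 difference, knockout minus wild type, of each member with 75th percentile scaling (black bar), under 10 other settings (open circles) and with spike-in scaling (triangles), coloured by role, with dashed lines at 1.5-fold. Spike-in scaling shifts each member upward, taking Mcl1 to -0.45 and Bcl2l10 to 0.03, while the BH3-only members stay above 0 in every setting shown.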

How the data were processed

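RNA of 1 pool of oocytes per genotype was measured on 1 array each. Per the file headers, the deposited values are linear intensity per spot, written by Agilent Feature Extraction 10.7.1.1 (the submitters' processing notes name 9.5.1.1), with background removed, a spatial trend corrected and surrogates in place of low values, and without normalisation between arrays. In the authors' deposited series-wide table, sorted intensity differed between the columns by at most 0.0243%, so it is quantile normalised, on a linear scale, with a median of 57.95, its direction is that of the scanner files, and it served as an alternative.

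Outlier spots (84 on the knockout and 88 on the wild-type array) and control spots were left out, log2 was taken, and spots of a probe were averaged. Each array's 75th percentile, a signal of 789.6 in knockout and 807.6 in wild type, was subtracted. A gene's value is the mean over probes well above background on both arrays. Member probes kept the file's names. Of all probes, 32989 were named by RefSeq accession (GRCm38.p6) and 23616 by the file, whose names can be old. Named were all members, pathway genes at least 1.5-fold apart and the extremes of each role, with others chosen after their values were seen. The values of 1 pathway gene are not reported here. The members and lists were chosen with earlier results of these data known. Python 3.11.15 with pandas 2.3.3 and R 4.3.3 with limma 3.58.1 were used. Alternatives were other scalings, quantile and loess (span 0.3) normalisation, normexp (offset 50), the authors' values, other filters, the brightest probe and no outlier flags.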

Additional observations from a re-analysis of the deposited data

How the results depend on the processing

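Each result was recomputed under 11 alternatives, which reprocess the same 2 arrays. Mcl1 was below 0 in all 11, from -0.66 to -0.45, and at least 1.5-fold lower in 10. Pmaip1 was above 0 in all 11, from 0.46 to 0.82, and at least 1.5-fold higher in 10. Some settings could not move these values, so the counts are no measure of support. Mcl1 stayed at -0.63 under both other filters. Pmaip1, with 1 probe, stayed at 0.63 under those filters and with the brightest probe. The authors' values are quantile normalised and nearly repeat that setting. The death median ran from 0.34 to 0.57 and survival minus death from -0.48 to -0.41. Settings that only scale each array by another constant cannot change survival minus death. Spike-in scaling raised the median of all genes to 0.22, turned the survival median to 0.12 and made 82.5% of the genes at least 1.5-fold apart higher ones, against 59.9% with 75th percentile scaling; Bad at 0.67 and Bid at 0.66 were then past 1.5-fold. With normexp the count of members at least 1.5-fold apart was 1 and that of all genes 1213, against 3009. That count was 8710 with no filter on dim probes and 1646 with a stricter one, which test more and fewer genes. The pathway count of 5 ran from 5 to 7. Dim genes are imprecise, as for Bcl2, whose difference ran from 0.02 to 0.25 without spike-in scaling. With that scaling Bcl2 was at 0.43, but it raises every gene by the same amount. No paired analysis was possible because each genotype has 1 array, and for the same reason no replicate could be left out.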

Other observations

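Probes of 1 pathway gene could differ in sign. Of 31 pathway genes with several measured probes, 12 had probes on both sides of 0 and 12 had probes more than 0.5 apart on the log2 scale. Examples are Apaf1, which encodes the scaffold of the apoptosome, with a mean of 0.29 and probes from -0.44 to 0.78, and Btrc, a ubiquitin ligase subunit, with a mean of -0.27 and probes from -0.91 to 0.37. Across all 7983 genes with several measured probes the distance between the lowest and highest probe had a median of 0.24. With genes split by signal into 5 equal groups, that median was 0.44 in the dimmest group and 0.10 in the brightest. Apaf1 and Btrc were chosen after their values were seen. The shares of 12 of 31 were not counted over all genes, so they are no result about the pathway.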
